A study of Mus musculus with 54 samples.

Results

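Donor and acceptor microglia were compared after 150 min of co-culture, in 8 of the 54 libraries of the series. The 4 donor and 4 acceptor libraries were chosen by the time and population in their titles and were paired by replicate number, so that each of 4 experiments gave 1 pair. All cells were primary microglia from neonatal C57BL/6 mice, a wild-type strain. Cells of 2 brains were pooled per culture flask, and the microglia were shaken off the astrocyte layer on which they had grown. Donors (Donors_150min) had taken up alpha-synuclein (aSyn) carrying the green dye Atto-488, given at 1 µM for 14 h. Acceptors (Acceptors_150min) received no aSyn and were stained with the violet dye CellTracer for 15 min. The populations were then mixed, kept together for 150 min and separated again by flow cytometry. Donors had been seeded in petri dishes and acceptors, in smaller number, in T25 flasks. The dyes, the vessels and the seeding therefore differ between the populations along with the aSyn, and their parts cannot be told apart. The labels give the cells of experiments 1, 2, 3 and 4 the passages 3, 1, 2 and 2. For reference, the series holds untreated microglia (Untreated_Ctrl), microglia given aSyn without co-culture (aSyn_Donor), and donors and acceptors at 0, 15, 30, 60 and 300 min.

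Microglia are the resident macrophages of the brain. They engulf aggregated aSyn, the protein of Lewy bodies, and respond to it through pattern recognition receptors, NF-kB signalling and the NRF2 antioxidant programme. Material that they cannot clear in lysosomes can be passed to neighbouring microglia through thin membrane bridges called tunnelling nanotubes. A co-culture of loaded and naive cells, sorted apart afterwards, asks how the RNA of both populations differs while they are in contact.

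Libraries were made with a 3′ end kit, so that a count reflects the number of transcripts rather than their length, and values are given as CPM, counts scaled to a common library size after TMM normalization. Total counts at 150 min ranged from 9757698 to 15537493, and 3 counts corresponded to between 0.184 and 0.293 CPM. The experiment dominated the spread: along the first principal component (33.1% of the variance of the 8 libraries) the experiment accounted for 92.0% and the population for 5.65%. Experiment 4 stood apart, with facility numbers of its own and 13.4 to 17.1% of counts on the ribosomal RNA precursor Rn45s, against 4.17 to 9.04% in the others. The edgeR biological coefficient of variation was 21.0% with the replicate number as a block and 38.1% without it. All tests below have that block unless stated. Microglial identity was checked with 15 markers, among them Csf1r (1948, 1391, 1689 and 692 CPM in donors and 1408, 1461, 1733 and 1194 CPM in acceptors) and Tyrobp (2445, 2098, 2098 and 619 CPM in donors and 2242, 2272, 2216 and 1420.4 CPM in acceptors). All 15 were tested, and 1, the leukocyte phosphatase Ptprc, was called, higher in donors (log2 fold change 0.43), though not without experiment 1 or without experiment 3. DESeq2 called 1 marker higher and 1 lower, and edgeR without experiment 4 called 1 higher and 2 lower. Unadjusted edgeR p-values were under 0.05 for 2 markers higher and 3 lower in donors. The 15 markers summed to 5789.6 to 16340.1 CPM in donors and 9597 to 17196 CPM in acceptors, with the lowest library of each group in experiment 4. Tmem119 and P2ry12, which mark microglia in the intact brain, were low in both populations, at 2.61 to 10.3 and 2.13 to 10.1 CPM. The 14 listed astrocyte markers, 13 of them tested, summed to 185 to 503 CPM in donors and 294 to 628 CPM in acceptors. Most of this was Glul, which macrophages also express. Gfap, which defines astrocytes, was at most 3.32 CPM, and it was at 0 in both libraries of experiment 2. Of 8 tested markers of border macrophages 1 was called, the chemokine Pf4 described below. No astrocyte, oligodendrocyte, neuronal, endothelial, fibroblast or monocyte and neutrophil marker was called by edgeR or DESeq2, and 2 of them, 1 endothelial and 1 neuronal, had an unadjusted p under 0.05. In bulk RNA, fewer cells of a type and less RNA per cell cannot be told apart.

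aSyn-loaded donors differed from acceptors in 684 of 13169 tested genes. Transcripts of inflammatory mediators, antioxidant enzymes, unfolded protein response genes and osteoclast-type proteases were among the 389 genes higher in donors. Transcripts of DNA replication and mitosis were among the 295 lower in donors. The tested genes are those of 16632 listed that passed a filter on low counts. The calls, by edgeR's quasi-likelihood test at a Benjamini-Hochberg adjusted p under 0.05, made up 5.19% of the tested genes (2.95% higher and 2.24% lower), and 2688 genes had an unadjusted p under 0.05. More than 2-fold differences were seen for 129 genes higher and 88 lower in donors, and the median absolute log2 difference of the called genes was 0.71. Of the 684 genes, 647 moved the same way in 4 of 4 pairs, and for 288 the donor and acceptor libraries did not overlap (174 higher and 114 lower). Non-overlapping groups occurred for 2.36% of all tested genes in the higher and 2.26% in the lower direction. A fit that omitted the block called 22 genes (17 higher, 5 lower), all of them among the 684. A fit of the 8 libraries alone, with the block, called 15 genes, 14 of them among the 684. In fits that left out 1 experiment at a time, 169 genes were called higher and 96 lower without experiment 1, and 250, 409 and 426 genes were called in all without experiments 2, 3 and 4.

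**Figure D1:**
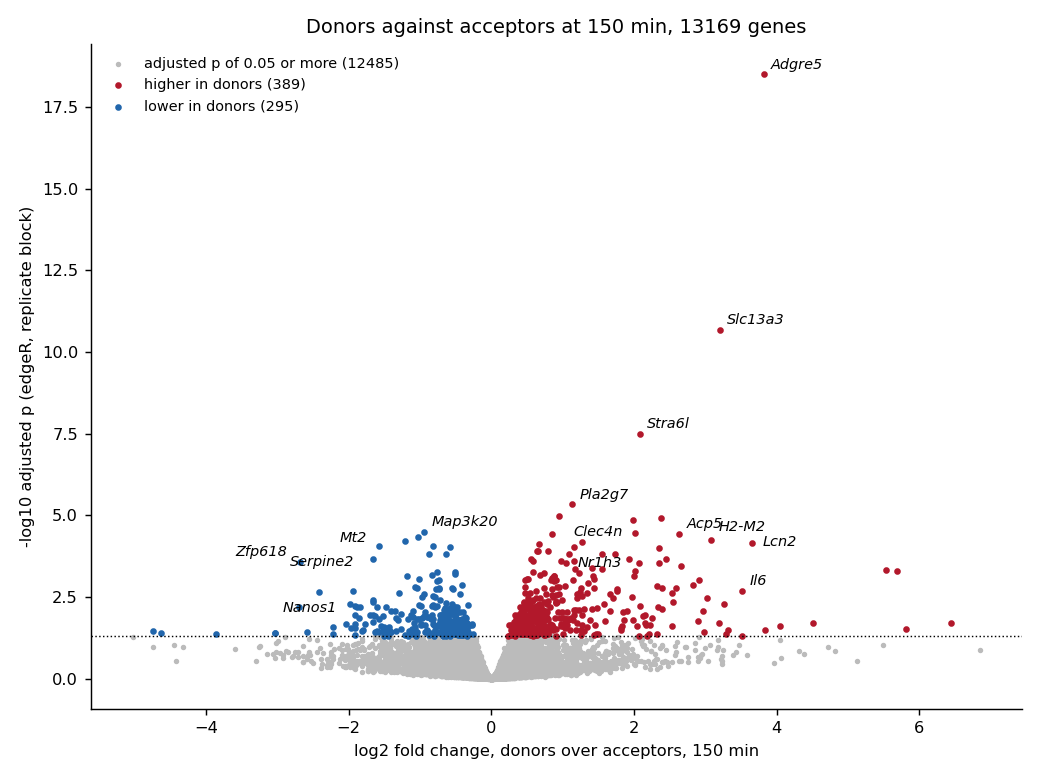
Log2 fold change of donors over acceptors at 150 min (x) against -log10 of the edgeR adjusted p (y) for 13169 genes, fitted with the replicate block. Red points are the 389 genes higher and blue points the 295 genes lower in donors, the dotted line marks an adjusted p of 0.05, and Adgre5 and Slc13a3 lie far above all other genes.

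For 4 surface receptors and 1 transporter, every donor library was above every acceptor library. Adgre5 was at 85.5, 68.5, 101 and 67.2 CPM in donor libraries 1 to 4 and at 3.71, 4.16, 9.89 and 5.21 CPM in acceptor libraries 1 to 4. Adgre5 encodes CD97, an adhesion G protein-coupled receptor of leukocytes. No acceptor library reached the lowest donor library, and the group means stood 14.0-fold apart, a log2 ratio of 3.82 with SE 0.18 (edgeR adjusted p 3.07e-19). Slc13a3 was at 21.8, 33.3, 65.9 and 47.1 CPM in donor libraries 1 to 4 and at 2.64, 4.66, 9.16 and 2.13 CPM in acceptor libraries 1 to 4. Every donor library was above every acceptor library for this sodium-dependent dicarboxylate transporter, a log2 ratio of 3.20 with SE 0.26 (edgeR adjusted p 2.08e-11). Clec4n was at 90.9, 125, 194 and 247.99 CPM in donor libraries 1 to 4 and at 19.3, 36.1, 66.0 and 42.9 CPM in acceptor libraries 1 to 4. Clec4n encodes dectin-2, a C-type lectin receptor for microbial sugars, and its groups did not overlap either, with a log2 ratio of 2.02 with SE 0.29 (edgeR adjusted p 3.38e-05). Stra6l was at 14.6, 16.7, 11.6 and 36.4 CPM in donor libraries 1 to 4 and at 3.42, 5.17, 3.45 and 4.90 CPM in acceptor libraries 1 to 4. For this retinol-binding protein receptor the donor libraries were again all above the acceptors, a log2 ratio of 2.08 with SE 0.22 (edgeR adjusted p 3.13e-08). The SLAM family receptor Cd244a ranged from 6.61 to 11.2 CPM in donors and from 0.789 to 2.45 CPM in acceptors, a log2 ratio of 2.38 with SE 0.32 (edgeR adjusted p 1.22e-05). These 5 genes were called under every alternative analysis, including the fit without the block and the fit of the 8 libraries alone, and no other gene was.

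**Figure D2:**
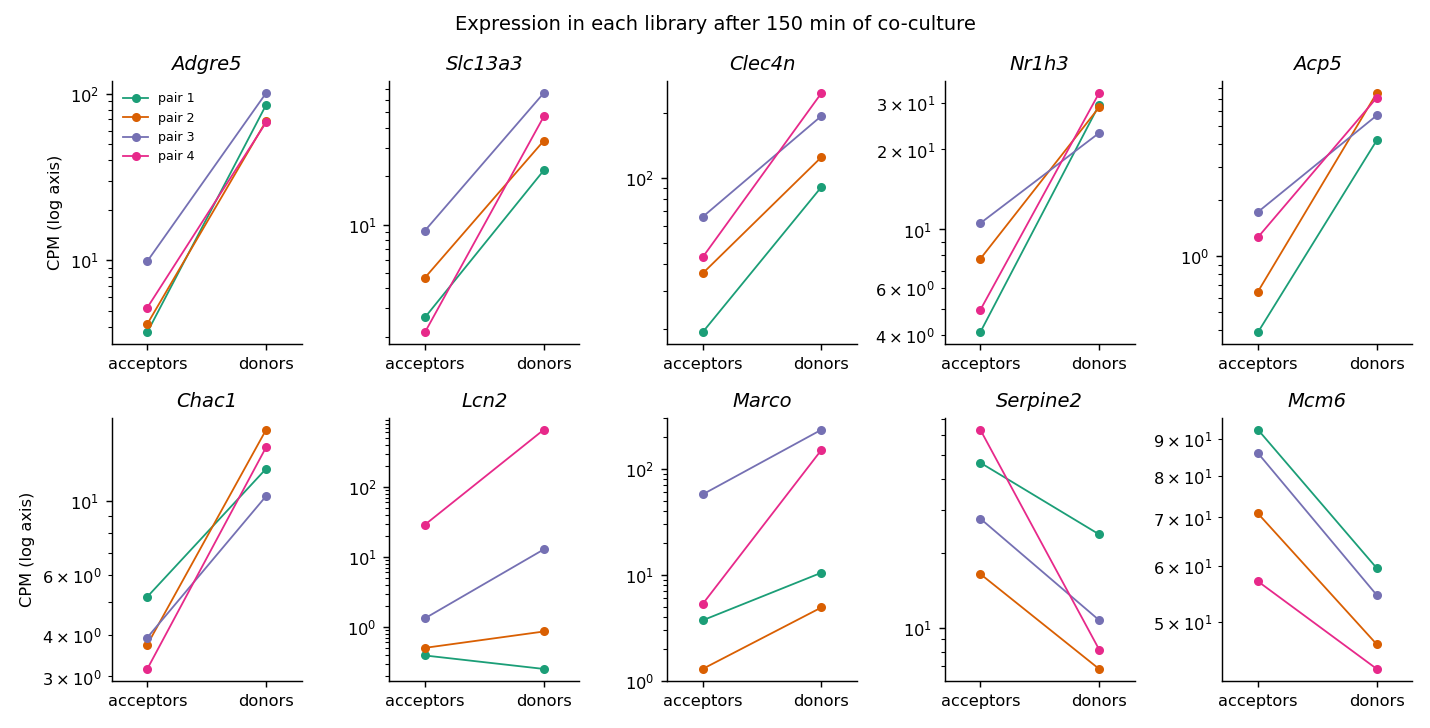
CPM on a log axis in each of the 8 libraries at 150 min, with a line joining the acceptor and donor library of 1 experiment (colours, pairs 1 to 4). Donor libraries lie above all acceptor libraries for Adgre5, Slc13a3, Clec4n, Nr1h3, Acp5 and Chac1, whereas Lcn2 and Marco differ more between experiments than between populations, and Serpine2 and Mcm6 are lower in donors in every pair.

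The genomic place of the largest difference bears on how it was counted. Adgre5 lies on chromosome 8 at 83723251 to 83741326 (GRCm38, minus strand, GENCODE M21), where its exons overlap those of Ddx39 on the opposite strand and of the small RNA gene Mir1668. Use of strand in counting was not given in the sources used here, so reads shared with Ddx39 cannot be assigned with certainty. Ddx39 itself differed by 0.32 (SE 0.16, edgeR adjusted p 0.247). Slc13a3 (chromosome 2, 165405028 to 165473230), Clec4n (chromosome 6, 123229843 to 123247021), Stra6l (chromosome 4, 45848664 to 45887008) and Cd244a (chromosome 1, 171559193 to 171609746) overlap no exon of another protein-coding, lncRNA, lincRNA, antisense, processed transcript or miRNA gene in that annotation. Other gene types, pseudogenes among them, were not counted. Of 155 genes looked up in this way, 11 shared exon sequence with a gene on the same strand and 37 with a gene on the opposite strand.

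Of the 684 genes, 110 were also called in all 4 fits that left out 1 experiment, 80 of them higher and 30 lower, and these 5 genes were among them. Nr1h3, which encodes the oxysterol receptor LXRα, was at 29.4, 28.8, 23.1 and 32.6 CPM in donors and 4.11, 7.75, 10.6 and 4.98 CPM in acceptors. Donors were above acceptors throughout, a log2 ratio of 2.07 with SE 0.36 (edgeR adjusted p 0.000296), although exons of the gene model Gm13783 share its strand. The tartrate-resistant phosphatase gene Acp5, an osteoclast marker, was at 4.18, 7.50, 5.69 and 7.08 CPM in donors and 0.391, 0.646, 1.73 and 1.26 CPM in acceptors. Its groups did not overlap, a log2 ratio of 2.63 with SE 0.38 (edgeR adjusted p 3.67e-05). Also higher in all donor than in all acceptor libraries were Alas1 (0.95, SE 0.13, adjusted p 1.05e-05), the first enzyme of haem synthesis, Anxa6 (1.16, SE 0.20, adjusted p 0.000253), a calcium-dependent membrane-binding protein, and Itga9 (1.43, SE 0.27, adjusted p 0.000704), an integrin subunit, all by edgeR. On the lower side, the BMP-binding protein gene Twsg1 was at 16.1, 17.9, 19.6 and 13.9 CPM in donors and 30.4, 29.1, 23.7 and 30.5 CPM in acceptors, with no overlap and a log2 ratio of -0.75 with SE 0.14 (edgeR adjusted p 0.000531). Ssh2, which encodes a cofilin phosphatase, was likewise lower in all donor libraries, a log2 ratio of -0.73 with SE 0.15 (edgeR adjusted p 0.00163). Nr1h3, Acp5, Alas1, Anxa6, Itga9, Twsg1 and Ssh2 were also called without the block, and none of the 7 was called in the fit of the 8 libraries alone.

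The largest rises among genes of at least 5 CPM that moved the same way in all pairs took in 12 genes. After Adgre5 they were Il6 (3.52, SE 0.72, adjusted p 0.00202), Slc13a3, H2-M2 (3.08, SE 0.46, adjusted p 5.51e-05), Nos2 (3.02, SE 0.65, adjusted p 0.00346), Spic (2.91, SE 0.55, adjusted p 0.000950), Cxcl3 (2.83, SE 0.55, adjusted p 0.00138), Marco (2.66, SE 0.47, adjusted p 0.000361), Acp5, Siglece (2.59, SE 0.52, adjusted p 0.00174), Cd38 (2.54, SE 0.56, adjusted p 0.00465) and Mmp14 (2.53, SE 0.52, adjusted p 0.00244), all by edgeR. H2-M2 encodes a non-classical MHC class I molecule, and it was at 31.2, 39.0, 173 and 322 CPM in donors and 3.91, 4.23, 55.4 and 14.5 CPM in acceptors. Each donor library exceeded its own acceptor, but acceptor 3 lay above donors 1 and 2. Marco was at 10.5, 4.92, 233.9 and 151 CPM in donor libraries 1 to 4 and at 3.71, 1.29, 57.3 and 5.29 CPM in acceptor libraries 1 to 4. Marco encodes a scavenger receptor of macrophages, and its level in acceptor 3 exceeded that in donors 1 and 2 as well. Siglece was at 5.02, 4.06, 13.8 and 44.6 CPM in donor libraries 1 to 4 and at 0.195, 2.08, 4.18 and 1.82 CPM in acceptor libraries 1 to 4. Siglece encodes an inhibitory sialic acid-binding lectin, and only acceptor 3 reached into the donor range. Spic, a transcription factor of iron-recycling macrophages, was at 0.753, 1.17, 0.961 and 19.8 CPM in donors and 0, 0.0718, 0.266 and 2.45 CPM in acceptors, so that most of its signal came from experiment 4. The NAD-consuming ectoenzyme gene Cd38 was at 7.78, 13.1, 36.8 and 131 CPM in donors and 1.17, 4.45, 13.2 and 5.13 CPM in acceptors, with the highest donor library in experiment 4 too. Without the block, Adgre5, Slc13a3 and Acp5 were called, and the other 9 were not (edgeR adjusted p from 0.209 for Siglece to 0.731 for Il6). Leaving out experiment 4 ended the call of Nos2 (adjusted p 0.0801) and took Il6 below the filter on low counts, and leaving out experiment 1 ended those of Cd38 (0.0558) and Mmp14 (0.0626).

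The 12 largest falls by the same rule were Zfp618 (-2.68, SE 0.46, adjusted p 0.000262), Spag5 (-1.96, SE 0.56, adjusted p 0.0290), Ctla2a (-1.93, SE 0.39, adjusted p 0.00211), Nanos1 (-1.91, SE 0.47, adjusted p 0.0115), Cxxc5 (-1.88, SE 0.43, adjusted p 0.00663), Tox2 (-1.86, SE 0.47, adjusted p 0.0144), Bub1 (-1.84, SE 0.42, adjusted p 0.00663), Lsp1 (-1.79, SE 0.52, adjusted p 0.0323), Pcsk1 (-1.70, SE 0.42, adjusted p 0.0111), Ddah2 (-1.66, SE 0.37, adjusted p 0.00465), Bmyc (-1.66, SE 0.41, adjusted p 0.0114) and Serpine2 (-1.66, SE 0.28, adjusted p 0.000213), all by edgeR. The serpin gene Serpine2, an inhibitor of thrombin and related proteases, was at 23.8, 6.82, 10.7 and 8.17 CPM in donors and 46.4, 16.5, 27.6 and 63.1 CPM in acceptors. It fell in each pair, although donor 1 lay above acceptor 2. Tox2, which encodes an HMG-box transcription factor, was at 27.9, 20.7, 11.9 and 4.38 CPM in donors and 55.0, 48.6, 52.8 and 39.7 CPM in acceptors, and its groups did not overlap. The RNA-binding translational repressor gene Nanos1 was at 36.8, 17.2, 6.73 and 1.82 CPM in donors and 67.3, 45.3, 27.2 and 54.1 CPM in acceptors, with the lowest value in donor 4 and overlap through donor 1. Spag5 and Bub1 encode proteins of the mitotic spindle and its checkpoint. Ctla2a was at 9.29, 5.10, 6.89 and 3.79 CPM in donors and 19.0, 8.90, 14.5 and 57.3 CPM in acceptors. Its acceptor 4 stood far above the other libraries, near-identical gene copies make its counts uncertain, and it missed the threshold without experiment 4 (edgeR adjusted p 0.0975). Of the 12 falls, Ctla2a alone was called without the block (adjusted p 0.0444), and the others had adjusted p-values from 0.257 for Pcsk1 to 0.629 for Bub1 and Bmyc. Leaving out experiment 2 ended the calls of Spag5, Nanos1, Cxxc5, Tox2, Bub1, Lsp1, Pcsk1 and Bmyc (edgeR adjusted p 0.0519 for Bub1 to 0.198 for Lsp1). Leaving out experiment 3 ended those of Spag5, Nanos1, Tox2, Bub1, Pcsk1 and Bmyc (0.0525 for Bub1 to 0.144 for Spag5). Leaving out experiment 1 ended those of Spag5 (0.104) and Lsp1 (0.131), and leaving out experiment 4 that of Lsp1 (0.0719).

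Of 30 genes of the unfolded protein response and the integrated stress response, 11 rose in donors and none fell. This response refolds or removes misfolded protein in the endoplasmic reticulum, through the transcription factors XBP1, ATF6 and ATF4. All 30 were tested, so that 36.7% were called, against 5.19% of all tested genes. The median log2 difference of the list was 0.56, against -0.02 over all tested genes, and 28 of the 30 values were above 0. Pair medians were 0.32, 0.54, 0.24 and 0.95, so that all 4 experiments showed the direction.

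Among the sensors and targets of this response, Herpud1 was at 54.2, 92.6, 48.9 and 44.3 CPM in donors and 26.8, 43.3, 24.8 and 13.7 CPM in acceptors. The product of Herpud1 takes part in the degradation of proteins from the endoplasmic reticulum. Its donor libraries all exceeded its acceptor libraries, a log2 ratio of 1.16 with SE 0.18 (edgeR adjusted p 9.60e-05). Chac1, a glutathione-degrading enzyme gene induced by ATF4, was at 12.5, 16.3, 10.3 and 14.5 CPM in donors and 5.18, 3.73, 3.92 and 3.16 CPM in acceptors. Its groups did not overlap, a log2 ratio of 1.73 with SE 0.28 (edgeR adjusted p 0.000151), and it was the 1 member called without the block (edgeR adjusted p 0.0337). Trib3, a pseudokinase gene induced by ATF4 and the stress factor CHOP, was at 44.0, 98.3, 36.3 and 58.7 CPM in donors and 17.7, 30.7, 20.05 and 16.3 CPM in acceptors, again without overlap, a log2 ratio of 1.43 with SE 0.29 (edgeR adjusted p 0.00172). Xbp1 rose in every pair, a log2 ratio of 0.84 with SE 0.16 (edgeR adjusted p 0.000935). The chaperone gene Hspa5, which encodes BiP, was at 518, 1019, 755 and 1397 CPM in donors and 416, 605, 554 and 515 CPM in acceptors, with a log2 ratio of 0.74 with SE 0.18 (edgeR adjusted p 0.0117) and overlap through donor 1. The co-chaperones and secreted factors Manf (0.90, SE 0.20, adjusted p 0.00447), Creld2 (0.80, SE 0.23, adjusted p 0.0314), Sdf2l1 (0.47, SE 0.13, adjusted p 0.0251) and Hyou1 (0.67, SE 0.19, adjusted p 0.0315), the eIF2α phosphatase subunit Ppp1r15a (0.76, SE 0.19, adjusted p 0.0114) and the tRNA synthetase Cars (0.57, SE 0.14, adjusted p 0.0138) were the other called members by edgeR. Manf shares exon sequence with other genes in GENCODE M21, so its counts are uncertain. Atf4 (0.59, edgeR adjusted p 0.0734) and Ddit3, which encodes CHOP (0.91, edgeR adjusted p 0.0939), did not pass. Without experiments 1, 2, 3 and 4 the list held 10, 5, 11 and 7 called genes, of which 9, 5, 7 and 7 were among these 11. Herpud1, Chac1, Xbp1 and Trib3 were called in each of these 4 fits. Creld2, Sdf2l1 and Hyou1 were called in the fit without experiment 1 alone of the 4, Hspa5 was not called without experiments 2 or 3 (edgeR adjusted p 0.123 and 0.0547), Cars not without 1 or 4 (0.118 and 0.0910) and Ppp1r15a not without 1 or 2 (0.0645 and 0.0900).

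Letters that match elements bound by these factors occur in the promoter windows of 5 of the called members. The windows below are 300 bases around the RefSeq start of each gene (GRCm38.p6). They were picked because they hold a match, and windows of called members without a match are not shown. The endoplasmic reticulum stress element, a binding site of ATF6 and NF-Y, was searched as CCAAT and CCACG with 9 bases of any kind between them, and its second form (ERSE-II) as ATTGG and CCACG with 1 base between them. The CHOP and ATF4 composite element (CARE) was searched as TGATGNAA. All searches took both strands. Capitals mark the matches, as they read on the printed strand. The windows are chr2:34771840-34772139 for Hspa5, chr15:88819396-88819695 for Creld2, chr8:94386179-94386478 for Herpud1 and chr2:119350992-119351291 for Chac1, all on the plus strand, and chr2:152344011-152344310 for Trib3 on the minus strand.
Hspa5: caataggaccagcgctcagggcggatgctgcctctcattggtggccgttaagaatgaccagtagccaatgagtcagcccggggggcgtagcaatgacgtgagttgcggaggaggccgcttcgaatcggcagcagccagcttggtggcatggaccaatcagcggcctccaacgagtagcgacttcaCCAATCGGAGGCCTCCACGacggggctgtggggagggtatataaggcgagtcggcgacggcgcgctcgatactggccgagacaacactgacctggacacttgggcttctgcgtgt
Creld2: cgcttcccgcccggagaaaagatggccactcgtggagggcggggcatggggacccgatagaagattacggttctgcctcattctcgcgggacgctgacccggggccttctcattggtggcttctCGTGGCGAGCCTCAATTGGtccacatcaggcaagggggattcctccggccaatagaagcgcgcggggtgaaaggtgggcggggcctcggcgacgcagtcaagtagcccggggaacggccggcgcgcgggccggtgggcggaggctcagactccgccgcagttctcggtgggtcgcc
Herpud1: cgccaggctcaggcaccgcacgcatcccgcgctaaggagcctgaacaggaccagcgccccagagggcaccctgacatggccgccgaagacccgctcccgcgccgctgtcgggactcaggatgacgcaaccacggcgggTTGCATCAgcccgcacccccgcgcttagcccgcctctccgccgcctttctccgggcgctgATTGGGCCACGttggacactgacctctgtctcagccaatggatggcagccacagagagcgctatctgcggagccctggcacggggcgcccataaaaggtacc
Chac1: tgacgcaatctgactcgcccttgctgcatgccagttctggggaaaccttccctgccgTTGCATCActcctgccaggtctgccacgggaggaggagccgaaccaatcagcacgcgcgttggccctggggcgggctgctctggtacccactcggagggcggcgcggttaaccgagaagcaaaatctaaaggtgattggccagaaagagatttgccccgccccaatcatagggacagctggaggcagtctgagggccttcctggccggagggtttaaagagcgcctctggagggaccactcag
Trib3: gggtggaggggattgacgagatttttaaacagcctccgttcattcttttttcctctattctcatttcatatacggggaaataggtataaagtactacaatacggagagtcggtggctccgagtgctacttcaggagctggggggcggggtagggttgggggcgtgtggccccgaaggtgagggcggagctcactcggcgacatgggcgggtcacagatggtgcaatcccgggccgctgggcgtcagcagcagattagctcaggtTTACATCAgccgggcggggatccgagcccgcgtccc

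The first of these elements was in 39 of 32851 RefSeq windows (0.119%) and in 17 of 10420 tested genes with a window (0.163%). Among the 26 list members with a window it was in 5, namely Hspa5, Pdia6, Calr, Canx and Creld2. Of these 5, only Hspa5 and Creld2 were called. Hspa5 carries the element on the plus strand at bases 186 to 204 of the window and Creld2 on the minus strand at bases 125 to 143. ERSE-II was in 12 windows (0.0365%) and in 8 of the tested genes with a window (0.0768%), 1 of them Herpud1, at bases 199 to 209. TGATGNAA was in 1304 windows (3.97%) and in 293 of the tested genes with a window (2.81%). The list members with it were Trib3, Chac1, Asns, Herpud1 and Aars, of which Trib3, Chac1 and Herpud1 were called and Asns and Aars were not. These matches do not overlap each other in the printed windows. Of the 11 called members, 8 have a window, and a match is a description of the letters only.

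NF-kB is the transcription factor that drives inflammatory gene expression. Among 38 tested targets, 8 rose and none fell (21.1% called against 5.19% of all tested genes). The list had a median log2 difference of 0.51 and 27 values above 0. Lcn2 was at 0.251, 0.860, 12.8 and 658 CPM in donor libraries 1 to 4 and at 0.391, 0.502, 1.33 and 28.9 CPM in acceptor libraries 1 to 4. This iron-scavenging lipocalin was above its own acceptor in pairs 2 to 4 and below it in pair 1, and only donors 3 and 4 exceeded 1 CPM among donors, a log2 ratio of 3.65 with SE 0.56 (edgeR adjusted p 6.97e-05). Lcn2 lost its call without experiment 4 (log2 fold change 1.80, edgeR adjusted p 0.330). Il6 was at 0.0837, 0.492, 0.320 and 40.4 CPM in donor libraries 1 to 4 and at 0, 0, 0 and 4.11 CPM in acceptor libraries 1 to 4. The cytokine Il6 thus rested on 553 counts in donor 4 and 52 in acceptor 4, with at most 8 counts in any other library. Nos2 was at 0.586, 3.07, 3.12 and 101 CPM in donor libraries 1 to 4 and at 0.293, 0.574, 0.863 and 5.77 CPM in acceptor libraries 1 to 4. For the inducible nitric oxide synthase Nos2 the range of donors 1 to 3 lay within that of the acceptors, while donor 4 was far above. Ikbke, which encodes an NF-kB and interferon pathway kinase, was more even, at 62.7, 98.2, 77.4 and 53.5 CPM in donors and 17.1, 55.6, 43.5 and 18.2 CPM in acceptors, with a log2 ratio of 1.23 with SE 0.22 (edgeR adjusted p 0.000570) and overlap through donor 4. The acute-phase protein gene Saa3 was at 214, 307, 5200.3 and 21454 CPM in donors and 75.4, 108, 1708 and 1166 CPM in acceptors, a log2 ratio of 2.21 with SE 0.67 (edgeR adjusted p 0.0433), and Il1a was at 0.0837, 1.84, 1.68 and 153 CPM in donors and 0, 1.08, 1.06 and 12.7 CPM in acceptors, a log2 ratio of 2.18 with SE 0.67 (edgeR adjusted p 0.0480). Il1a was not called without experiments 1, 2 or 4 (edgeR adjusted p 0.129, 0.0611 and 0.735), nor was Saa3 without 1, 2 or 3 (0.129, 0.132 and 0.136). DESeq2 with the block called 8 members of the list, but not Lcn2, Il6 or Il1a. Il1a was also not called by edgeR without the filter on low counts. Il1b (1.26, edgeR adjusted p 0.184), Tnf (-0.25, adjusted p 0.721) and the feedback inhibitor Nfkbia (-0.33, adjusted p 0.373) did not pass. Without experiments 1, 2, 3 and 4 the list held 5, 5, 7 and 8 called genes, of which 5, 5, 7 and 4 were among these 8, and no member was called without the block. The calls lost without experiment 4 were Lcn2, Nos2 (edgeR adjusted p 0.0801), Il1a and Il6, which then fell below the filter on low counts. Ikbke and Cxcl3 were called in each of these 4 fits. The summed microglial markers were lowest in the same donor 4 (5789.6 CPM), and their part in these differences was not tested.

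Chemokines draw other immune cells to microglia. The 24 tested chemokines had a median of 0.62 and pair medians of 0.94, 0.91, 0.10 and 0.92. Of these genes, 5 rose and none fell (20.8% called against 5.19% of all tested genes). They were the neutrophil attractant Cxcl3 (2.83, SE 0.55, adjusted p 0.00138), the monocyte attractants Ccl7 (2.23, SE 0.61, adjusted p 0.0228) and Ccl8 (2.12, SE 0.53, adjusted p 0.0121), the eosinophil attractant Ccl24 (2.09, SE 0.47, adjusted p 0.00609) and platelet factor 4 Pf4 (0.69, SE 0.21, adjusted p 0.0407), all by edgeR. Ccl8 was at 26.3, 138, 65.5 and 41.7 CPM in donor libraries 1 to 4 and at 5.57, 32.4, 31.5 and 3.48 CPM in acceptor libraries 1 to 4. Donors exceeded acceptors within each pair, and the groups overlapped through acceptors 2 and 3. Among 15 tested chemokine and formyl peptide receptors, 3 rose and none fell (20% called), with a median of 0.21. Ccr1 was at 9.45, 7.25, 13.1 and 29.5 CPM in donor libraries 1 to 4 and at 1.95, 1.15, 4.18 and 3.40 CPM in acceptor libraries 1 to 4. Ccr1, a receptor for inflammatory CC chemokines, was higher in all donors than in any acceptor, a log2 ratio of 2.35 with SE 0.37 (edgeR adjusted p 0.000102). The formyl peptide receptor genes Fpr1 (2.40, SE 0.56, adjusted p 0.00725) and Fpr2 (2.26, SE 0.57, adjusted p 0.0136) rose too by edgeR, with their highest values in donor 4, at 184 and 305 CPM, and Fpr2 shares exon sequence with Fpr3. The chemokine count of 5 was 1 without experiment 1 and 1 without experiment 2, and the receptor count of 3 was 1 without experiment 1 and 1 without experiment 3. Without the block no chemokine and no chemokine receptor of the lists was called.

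NRF2 targets detoxify oxidants and bind iron. Of 29 tested genes, 9 rose in donors and none fell (31.0% called against 5.19% of all tested genes). In this list 26 values were above 0, and the median was 0.32 (pair medians 0.20, 0.49, 0.55 and 0.15). Nqo1 was at 4.60, 1.91, 8.25 and 29.0 CPM in donor libraries 1 to 4 and at 1.76, 0.718, 0.531 and 4.34 CPM in acceptor libraries 1 to 4. The quinone reductase Nqo1 was higher in donors within each pair, while acceptor 4 lay above donor 2, a log2 ratio of 2.34 with SE 0.41 (edgeR adjusted p 0.000296). Slc7a11 was at 25.1, 11.9, 147 and 298 CPM in donor libraries 1 to 4 and at 7.92, 4.66, 39.7 and 75.2 CPM in acceptor libraries 1 to 4. The cystine transporter subunit Slc7a11 rose in each pair, a log2 ratio of 1.76 with SE 0.35 (edgeR adjusted p 0.00180), from a level that differed widely between experiments. The ferritin heavy chain gene Fth1 was at 19206, 24029, 36325 and 39533 CPM in donors and 16906, 15294, 23935 and 25693 CPM in acceptors, a log2 ratio of 0.52 with SE 0.14 (edgeR adjusted p 0.0224). Sqstm1, which encodes the autophagy receptor p62, was at 1321, 2216, 1953 and 2542 CPM in donors and 942, 1074, 1391 and 1854 CPM in acceptors, a log2 ratio of 0.62 with SE 0.16 (edgeR adjusted p 0.0166), and its exons overlap those of Mrnip. Fth1 was not called without experiments 2, 3 or 4 (edgeR adjusted p 0.207, 0.142 and 0.0717), nor Sqstm1 without 1, 2 or 3 (0.0699, 0.100 and 0.0593). The other called members by edgeR were Blvrb (0.62, SE 0.13, adjusted p 0.00209), Gstm1 (0.72, SE 0.19, adjusted p 0.0211), Txn1 (0.53, SE 0.14, adjusted p 0.0224), Gsr (0.71, SE 0.21, adjusted p 0.0362) and Osgin1 (0.74, SE 0.23, adjusted p 0.0448). Hmox1, the haem oxygenase gene, was at 240.7, 171, 399 and 1474 CPM in donors and 159, 99.5, 140.1 and 1581 CPM in acceptors. It did not pass (edgeR adjusted p 0.0565), but without experiment 4 it was called higher in donors (log2 fold change 0.94, edgeR adjusted p 0.0135). Without experiments 1, 2, 3 and 4 the list held 9, 2, 3 and 7 called genes, of which 7, 2, 3 and 4 were among these 9. Nqo1 and Slc7a11 were called in each of these 4 fits and Osgin1 in none, and Gstm1, Txn1 and Gsr were called in the fit without experiment 1 alone of the 4. Among 18 tested iron handling genes, 3 rose (16.7% called): Lcn2, Fth1 and the lysosomal metal exporter Slc11a1 (0.85, SE 0.12, edgeR adjusted p 3.67e-05). Slc11a1 was at 245.8, 292, 455 and 413 CPM in donor libraries 1 to 4 and at 125, 155, 252.5 and 261.1 CPM in acceptor libraries 1 to 4. It rose in every pair, with acceptors 3 and 4 reaching into the donor range.

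Osteoclasts are bone-resorbing macrophages, and 17 genes of their differentiation and fusion were tested. Of these genes, 5 rose and none fell (29.4% called against 5.19% of all tested genes, median 0.50). Mmp9 was at 58.3, 19.5, 217 and 35.8 CPM in donor libraries 1 to 4 and at 8.31, 4.38, 126 and 4.82 CPM in acceptor libraries 1 to 4. The gelatinase Mmp9 rose in each pair, a log2 ratio of 2.01 with SE 0.36 (edgeR adjusted p 0.000499), although acceptor 3 exceeded 3 of the 4 donors. Mmp14 was at 29.1, 13.2, 109 and 288 CPM in donor libraries 1 to 4 and at 3.52, 3.01, 49.1 and 18.9 CPM in acceptor libraries 1 to 4. For this membrane-anchored protease the donor of each pair was higher, and acceptor 3 exceeded donors 1 and 2. The fusion gene Ocstamp was at 6.27, 3.69, 1.76 and 4.16 CPM in donors and 1.08, 0, 0.332 and 0.316 CPM in acceptors. No acceptor reached the lowest donor, a log2 ratio of 3.26 with SE 0.73 (edgeR adjusted p 0.00535), and the fitted value depends on the near absence of counts in acceptors. Acp5 and the RANK receptor gene Tnfrsf11a (0.73, SE 0.17, adjusted p 0.00908) completed the 5 by edgeR. Tnfrsf11a was not called without experiments 1 or 2 (edgeR adjusted p 0.0559 and 0.0580), and the list count was 3 without experiment 1. Of 23 matrix metalloproteinases and their inhibitors, 4 rose and none fell (17.4% called). They were Mmp9, Mmp14, Mmp8 (2.16, SE 0.53, edgeR adjusted p 0.0110) and Mmp19 (1.298, SE 0.38, edgeR adjusted p 0.0339). The count was 1 without experiment 1 and 2 without experiment 3. Among 14 tested adhesion G protein-coupled receptors, 2 rose (14.3% called), with a list median of 0.01. They were Adgre5 and Adgre1 (0.58, SE 0.13, edgeR adjusted p 0.00380), which encodes the macrophage antigen F4/80. Adgre1 missed the threshold without experiment 1 (edgeR adjusted p 0.0879).

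Genes of DNA replication and mitosis were described as separate lists. Of 35 tested genes of DNA replication, 6 fell and none rose (17.1% called against 5.19% of all tested genes), and 3 values were above 0. The list median was -0.39, and the 4 pair medians were -0.35, -0.45, -0.46 and -0.59. Mcm6 was at 59.5, 46.6, 54.6 and 43.1 CPM in donor libraries 1 to 4 and at 92.8, 70.9, 86.0 and 57.0 CPM in acceptor libraries 1 to 4. Mcm6 encodes a subunit of the replicative helicase, and it fell in each pair, a log2 ratio of -0.58 with SE 0.09 (edgeR adjusted p 9.60e-05), with overlap through acceptor 4. The other helicase subunits Mcm4 (-0.84, SE 0.19, adjusted p 0.00618), Mcm7 (-0.60, SE 0.16, adjusted p 0.0160), Mcm3 (-0.48, SE 0.13, adjusted p 0.0211) and Mcm5 (-1.08, SE 0.30, adjusted p 0.0264) and the loading factor Cdc6 (-1.50, SE 0.42, adjusted p 0.0266) fell as well by edgeR. Of 34 tested mitotic genes, 5 fell and none rose (14.7% called), and 1 value was above 0. The median was -1.06, with pair medians of -0.45, -1.11, -0.71 and -1.55. Ccna2 was at 21.0, 6.02, 6.57 and 5.47 CPM in donor libraries 1 to 4 and at 29.0, 15.7, 16.5 and 13.8 CPM in acceptor libraries 1 to 4. The cyclin gene Ccna2 fell in each pair, a log2 ratio of -1.10 with SE 0.26 (edgeR adjusted p 0.00836), with donor 1 above acceptors 2 to 4, and its exons overlap those of Exosc9 on the other strand. Bub1, Cenpf (-1.54, SE 0.42, adjusted p 0.0240), Ckap2l (-1.60, SE 0.47, adjusted p 0.0351) and Hmmr (-1.41, SE 0.42, adjusted p 0.0387) were the other mitotic members called by edgeR. Mki67, the common marker of cycling cells, was at 35.9, 6.39, 8.25 and 5.33 CPM in donors and 48.8, 16.1, 10.3 and 25.0 CPM in acceptors and did not pass (edgeR adjusted p 0.0801). No mitotic gene was called without experiment 2 or without experiment 3. Without experiments 1 and 4, 5 and 6 were called, of which 3 and 4 were among the 5 named. Cenpf (0.0674) and Hmmr (0.0579) missed the threshold without experiment 1 and Ckap2l (0.102) without experiment 4 (edgeR adjusted p). The replication count of 6 was 2, 3, 1 and 3 without experiments 1, 2, 3 and 4, of which 2, 3, 1 and 2 were among the 6, and Mcm6 was called in each of these fits. Unadjusted p-values were under 0.05 for 15 of the 35 replication genes and 25 of the 34 mitotic genes, all lower in donors, and DESeq2 with the block called 8 and 15.

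Genes of uptake and degradation were described as lists of lysosomal genes, autophagy genes and scavenger receptors. Of 45 tested lysosomal genes, none rose and 2 fell (4.44% called against 5.19% of all tested genes), Lamp2 (-0.30) and Gusb (-0.46), with a median of -0.09. The aspartic protease gene Ctsd was at 7444, 6820.0, 7714 and 2409.7 CPM in donors and 8050.0, 7078, 8489 and 6743 CPM in acceptors, so that donor 4 alone was low. Neither Lamp2 nor Gusb was called in any fit without 1 experiment (lowest edgeR adjusted p 0.0914 for Lamp2 and 0.0603 for Gusb). Of 38 autophagy genes, 7.89% were called: Sqstm1 rose, and the initiating kinase Ulk1 (-0.62, SE 0.15, adjusted p 0.0119) and the autophagosome protein Map1lc3b (-0.32, SE 0.09, adjusted p 0.0222) fell by edgeR. Ulk1 was at 27.4, 34.7, 32.5 and 23.5 CPM in donor libraries 1 to 4 and at 43.4, 42.1, 47.3 and 46.4 CPM in acceptor libraries 1 to 4. All donors lay below all acceptors for Ulk1, and it was not called without experiments 1 or 4 (adjusted p 0.0758 and 0.0634). Map1lc3b was not called without experiments 1, 2 or 4 (0.117, 0.108 and 0.330). Of 24 scavenger and efferocytosis receptors, 8.33% were called: Marco rose and the endocytic receptor Lrp1 (-0.52, SE 0.15, adjusted p 0.0265) fell by edgeR, with a median of -0.31 that came mostly from pair 4 (pair medians 0.07, -0.06, -0.20 and -0.86). Lrp1 was not called without experiments 1, 2 or 4 (0.103, 0.102 and 0.209).

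Of 39 tested genes of the nanotube and filopodia machinery, 3 rose and 1 fell (10.3% called against 5.19%), with a median of 0.03. Baiap2 was at 35.1, 42.2, 46.1 and 59.8 CPM in donor libraries 1 to 4 and at 24.1, 27.8, 31.6 and 25.7 CPM in acceptor libraries 1 to 4. Baiap2, which encodes the membrane-bending protein IRSp53 of filopodia, was higher in all donors, a log2 ratio of 0.74 with SE 0.16 (edgeR adjusted p 0.00461). The GTPase gene Rac2 (1.01, SE 0.28, adjusted p 0.0246) and Lst1 (0.77, SE 0.22, adjusted p 0.0321) rose by edgeR, and the exocyst subunit gene Exoc4 (-0.56, SE 0.13, adjusted p 0.00894) fell. Tnfaip2, whose product M-Sec promotes nanotube formation, was at 278, 307, 341 and 449 CPM in donors and 167, 159, 238.1 and 503 CPM in acceptors. It did not pass (edgeR adjusted p 0.169), nor did Myo10 (-0.34, adjusted p 0.406). Without experiment 4, Tnfaip2 was called higher in donors (log2 fold change 0.74, edgeR adjusted p 0.0332). Rac2 was not called without experiments 1, 2 or 3 (0.0950, 0.0735 and 0.0974), nor Lst1 without 1 or 4 (0.177 and 0.217), and the fall of Exoc4 was not called without experiments 2, 3 or 4 (adjusted p 0.0925, 0.0698 and 0.0689).

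Interferon-stimulated genes were not called, whatever their direction. None of the 40 tested members passed in edgeR or DESeq2, 15 had an unadjusted p under 0.05, all higher in donors, and 39 of the 40 values were above 0. The list median of 0.75 was the highest of the 28 functional lists, but its pair medians were 0.63, 0.01, 0.15 and 2.00, and it was 0.26 without experiment 4. Ifit1, a typical interferon-induced gene, was at 326, 355, 225.9 and 412 CPM in donors and 201, 323, 179 and 111 CPM in acceptors. Of 23 tested MHC presentation genes, 1 rose (4.35% called against 5.19% of all tested genes), the peptide-loading subunit H2-DMa (0.86, SE 0.24, adjusted p 0.0261), by edgeR. H2-DMa was called without experiment 1 and not without experiments 2, 3 or 4.

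Microglia are described by homeostatic genes of the resting cell and by genes that change in disease. Of 27 tested homeostatic genes, 2 rose and none fell (7.41% called against 5.19% of all tested genes), the purinergic receptor P2ry13 (1.70, SE 0.36, adjusted p 0.00337) and the transcription factor Maf (0.82, SE 0.19, adjusted p 0.00635), by edgeR. The list median was -0.15 with 10 values above 0, and the pair medians were 0.27, -0.08, -0.23 and -0.79. Unadjusted p-values were under 0.05 for 3 genes higher and 6 lower in donors, and 2 genes were called lower without experiment 4 and 1 by DESeq2. P2ry13 was at 15.1, 9.96, 16.5 and 5.91 CPM in donor libraries 1 to 4 and at 5.08, 5.74, 6.11 and 0 CPM in acceptor libraries 1 to 4. All donors except donor 4 lay above the acceptors, and acceptor 4 had no count. Cx3cr1, the fractalkine receptor gene, was at 471, 154, 169 and 25.2 CPM in donors and 585, 374, 199 and 92.8 CPM in acceptors and did not pass (edgeR adjusted p 0.267). Of 30 genes of disease-associated microglia, 10.0% were called: the lipid-binding protein Fabp5 (0.66, SE 0.11, adjusted p 0.000125) and Cd52 (0.71, SE 0.18, adjusted p 0.0160) rose and the cholesterol hydroxylase Ch25h (-1.06, SE 0.32, adjusted p 0.0455) fell by edgeR. Ch25h was called in none of the fits that left out 1 experiment (adjusted p from 0.0599 to 0.162). Fabp5 was at 1129.8, 1444, 1973 and 1528 CPM in donor libraries 1 to 4 and at 707, 862, 1353 and 960.2 CPM in acceptor libraries 1 to 4. It rose in each pair, with acceptor 3 reaching into the donor range. Apoe was at 15023, 11271, 14496 and 4644 CPM in donors and 13512, 10368, 19573 and 14392 CPM in acceptors and did not pass (edgeR adjusted p 0.309). Of 23 cholesterol synthesis genes 2 rose (8.7% called), Insig1 (0.68, SE 0.18, adjusted p 0.0170) among them. Of 22 LXR targets Nr1h3 alone rose (4.55% called), while the efflux transporter gene Abca1 (-0.36, edgeR adjusted p 0.266) did not pass. Maf (edgeR adjusted p 0.0871) was not called without experiment 1, Insig1 without experiments 1 (0.0925) or 2 (0.176), and Cd52 without experiments 1 (0.122), 3 (0.0568) or 4 (0.154).

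Of 34 tested immediate early genes, 2 rose and none fell (5.88% called against 5.19% of all tested genes). They were the stress gene Gadd45b (1.44, SE 0.27, adjusted p 0.000876) and the AP-1 gene Fosl1 by edgeR, whereas Fos (-0.46) and Egr1 (-0.30) did not pass. Fosl1 had counts in every donor library (0.922 to 3.14 CPM), none in acceptors 1 to 3 and 8 in acceptor 4, and it was called without experiment 4 but not without experiments 1, 2 or 3 (edgeR adjusted p 0.0605, 0.0868 and 0.116). Among 22 FOXO and glucocorticoid-responsive genes (13.6% called), Tsc22d3 (0.95, SE 0.20, adjusted p 0.00254) rose and Zbtb16 (-2.70, SE 0.62, adjusted p 0.00636) and Pik3ip1 (-2.04, SE 0.55, adjusted p 0.0211) fell by edgeR. Zbtb16 was at 0.502, 0.369, 0.481 and 0.292 CPM in donor libraries 1 to 4 and at 1.86, 4.16, 1.86 and 3.08 CPM in acceptor libraries 1 to 4. All donors lay below all acceptors for this transcription factor, which was not called without experiments 1 or 2 (adjusted p 0.0531 and 0.112). Tsc22d3 was not called without experiment 4 (adjusted p 0.0544), nor Pik3ip1 without 1, 2 or 3 (0.0993, 0.126 and 0.0864). Among 28 heat shock genes (7.14% called) the near-identical copies Hspa1b (1.86) and Hspa1a (1.43) rose, whose reads the counting could split between them. Both were called in the fit without experiment 1 and in no other fit that left out 1 experiment. Respiratory chain subunits (1 of 52 or 1.92%, Cox5a), glycolysis and hypoxia genes (1 of 31 or 3.23%, Hk3) and the TGF-beta pathway (Bmp8a higher and Ski lower, of 29, or 6.9%) held few called genes. Among the fits that left out 1 experiment, Bmp8a and Hk3 were called without experiment 4 only, Cox5a without experiment 2 only and Ski in none. Of 25 Parkinson disease genes none was called by edgeR and 1 by DESeq2, and 5 had an unadjusted p under 0.05.

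**Figure D3:**
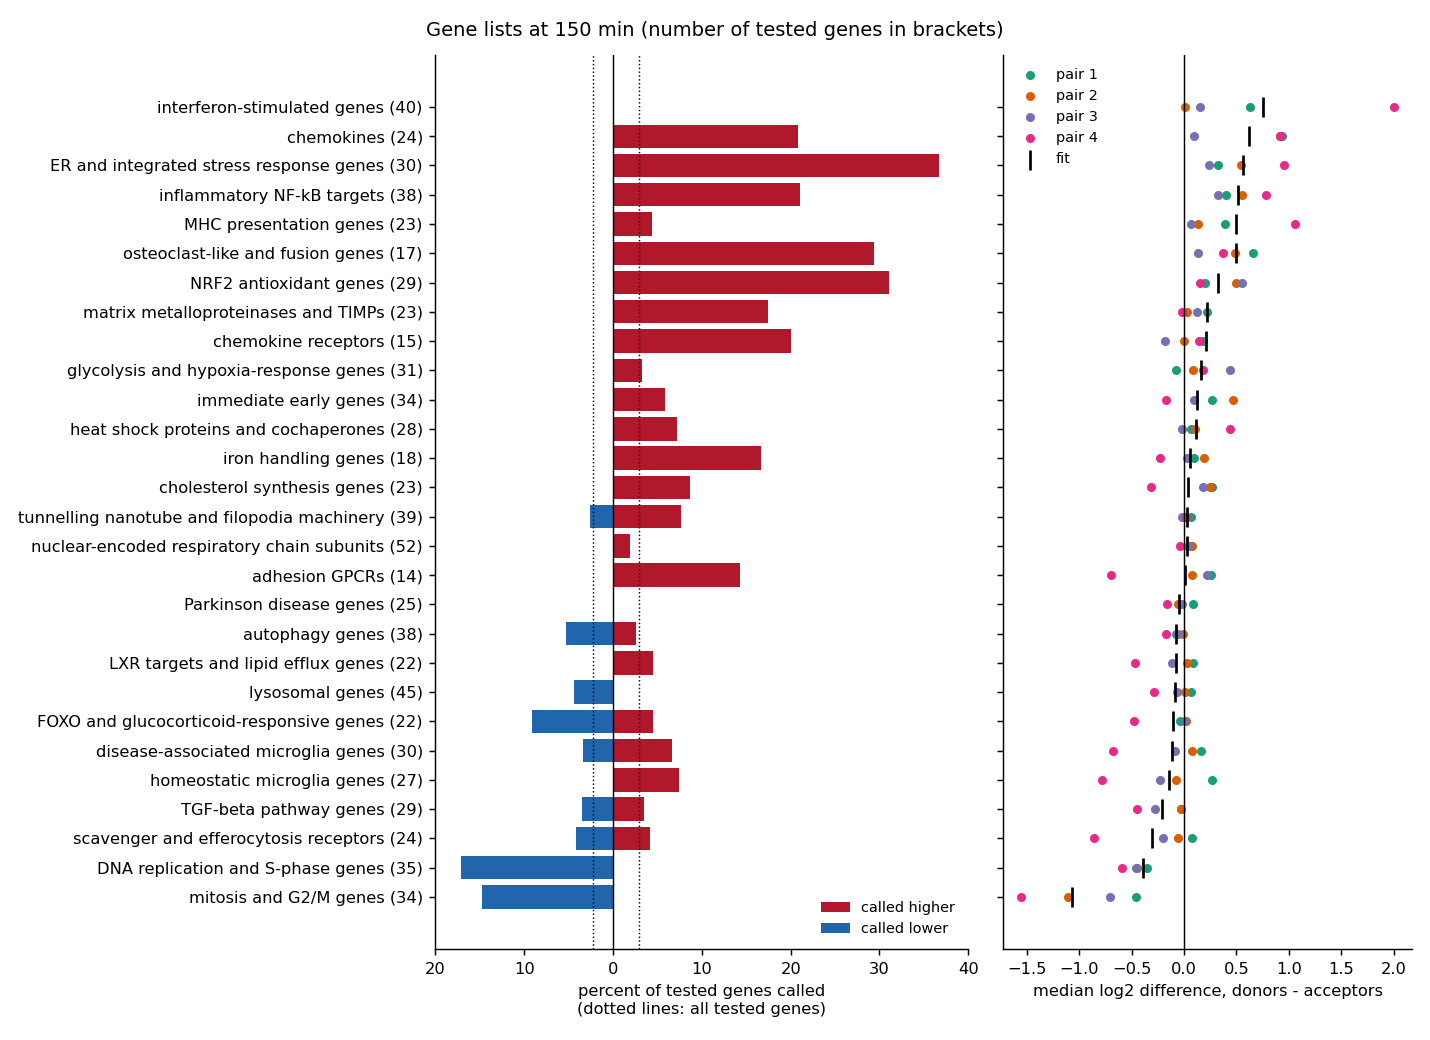
Left, percent of the tested genes of each list called higher (red) and lower (blue) in donors at 150 min, with dotted lines at the share among all tested genes (2.95% higher, 2.24% lower). Right, median log2 difference of each list in the 4 pairs (points) and in the fit (bars), where pair 4 lies apart for interferon-stimulated genes (2.00 against 0.01 to 0.63).

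The reference groups place these differences. Donors at 150 min and cells given aSyn without co-culture differed in no gene by edgeR at an adjusted p under 0.05, with 406 genes at an unadjusted p under 0.05. Acceptors at 150 min, which per the labels were stained while untreated cells were not, differed from untreated cells in 630 genes (4.78%). Both comparisons share libraries with that of donors and acceptors, so the values are set side by side only. Adgre5 was at 3.04 ± 0.621 CPM (SD, n = 4, the 6 libraries summed by experiment) in untreated cells and 81.1 ± 8.25 CPM (SD, n = 4) in aSyn-exposed cells. Acceptors at 150 min, at 5.75 ± 2.83 CPM (SD, n = 4), were above the untreated cells by 0.91 (SE 0.20, edgeR adjusted p 0.00396), and donors, at 80.5 ± 15.9 CPM, differed from aSyn-exposed cells by -0.04. Sqstm1 stood at 548 ± 103 CPM in untreated cells and at 1315 ± 405 CPM in acceptors, a log2 difference of 1.19 (SE 0.16, edgeR adjusted p 1.81e-05). Slc7a11 stood at 4.11 ± 2.16 CPM in untreated cells and 31.9 ± 32.9 CPM in acceptors, 2.47 (SE 0.43, edgeR adjusted p 0.000414), with its highest acceptor values in experiments 3 and 4. For Tox2, acceptors at 49.0 ± 6.75 CPM lay below untreated cells at 157 ± 53.0 CPM, -1.70 (SE 0.45, edgeR adjusted p 0.0220), and donors at 16.2 ± 10.3 CPM lay lower still. For Slc13a3, acceptors (4.65 ± 3.20 CPM) and untreated cells (4.57 ± 1.99 CPM) differed by 0.00 (SE 0.27).

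Exposure to aSyn without co-culture also gives a contrast of exposed over unexposed cells, from other libraries of the same 4 experiments. The labels give staining for acceptors and not for untreated cells, and seeding numbers for the co-cultured populations only. Any part of staining or seeding therefore cannot be told apart from that of co-culture. The contrast without co-culture called 2524 genes (19.2%). Of these, 419 genes were called in both contrasts, 61.3% of the 684 and 16.6% of the 2524. Of the 419, 413 had the same direction and 6 the opposite. The difference between the contrasts was tested directly and called 126 genes (0.957%), 54 with a larger and 72 with a smaller signed value at 150 min. The contrasts had opposite signs in 89 of these 126 genes, and in 36 the sign was shared and the difference at 150 min was smaller. In the remaining 1 it was larger. Of the 684 genes called at 150 min, 28 were among the 126. Without the block 2 of these differences were called, and 491 genes had an unadjusted p under 0.05 (1512 with the block). Leaving out experiments 1, 2, 3 and 4 left 20, 32, 23 and 66 genes.

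**Figure D4:**
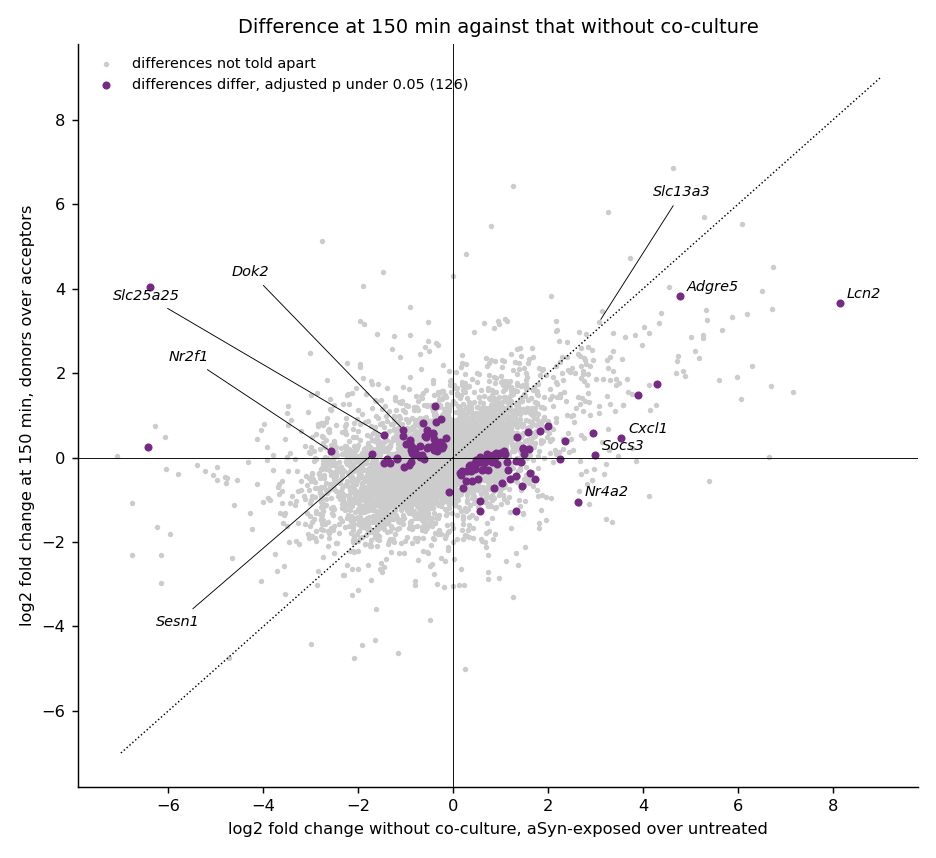
Log2 fold change of aSyn-exposed over untreated cells without co-culture (x) against that of donors over acceptors at 150 min (y), 1 point per tested gene. Purple points are the 126 genes whose 2 differences differ by edgeR with the replicate block, 89 of them with opposite signs on the axes, and the dotted line marks equal values.

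Inflammatory signalling genes made up several of the 5 largest decreases against the contrast without co-culture. Lcn2 had a log2 difference of 8.15 without co-culture and 3.65 at 150 min, and these differed by -4.50 (SE 0.92, edgeR adjusted p 0.00729). It stood at 0.473 ± 0.556 CPM in untreated cells and 7.78 ± 14.1 CPM in acceptors (SD, n = 4 each), most of the latter in acceptor 4. The chemokine gene Cxcl1 had 3.55 without co-culture and 0.46 at 150 min, a difference of -3.09 (SE 0.73, edgeR adjusted p 0.0279). Cxcl1 was at 8.45, 12.05, 7.37 and 108 CPM in donor libraries 1 to 4 and at 6.06, 5.96, 12.7 and 62.2 CPM in acceptor libraries 1 to 4. The feedback inhibitor of cytokine signalling Socs3 had 2.99 and 0.06, a difference of -2.93 (SE 0.65, edgeR adjusted p 0.0144), and the nuclear receptor gene Nr4a2 had 2.62 and -1.05, a difference of -3.67 (SE 0.90, edgeR adjusted p 0.0360). Socs3 rose in acceptors against untreated cells by 2.25 (SE 0.49, edgeR adjusted p 0.00476) and Nr4a2 by 2.46 (SE 0.67, edgeR adjusted p 0.0250). In both genes experiment 4 held the highest acceptor library, at 154 CPM for Socs3 and 27.0 CPM for Nr4a2. The long non-coding RNA AI504432 (1.32 and -1.27) differed by -2.59 (SE 0.61, edgeR adjusted p 0.0268). In the other direction, the adaptor gene Dok2 fell by 1.05 on the log2 scale without co-culture and was 0.66 higher in donors at 150 min, a difference of 1.71 (SE 0.27, edgeR adjusted p 0.000647). The mitochondrial carrier gene Slc25a25 (-1.46 and 0.53) differed by 1.99 (SE 0.37, edgeR adjusted p 0.00386), and the sestrin gene Sesn1 (-1.70 and 0.08) by 1.78 (SE 0.46, edgeR adjusted p 0.0441). The nuclear receptor gene Nr2f1 (-2.58 and 0.15) differed by 2.73 (SE 0.69, edgeR adjusted p 0.0405), and the non-coding RNA AU022793 (-0.39 and 1.23) by 1.62 (SE 0.40, edgeR adjusted p 0.0360). Dok2, Slc25a25, Sesn1, Nr2f1 and AU022793 were all lower in acceptors at 150 min than in untreated cells, Dok2 for instance by -1.15 (SE 0.19, edgeR adjusted p 0.000299). None of these 10 named differences was called without the block (lowest edgeR adjusted p 0.464). The 13 tested astrocyte markers had a median of -1.72 without co-culture, where 7 were called lower, and -0.02 at 150 min. The 12 oligodendrocyte markers had medians of -1.20, with 4 called lower, and -0.23. Their part in these differences was not tested.

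Against the other times, few genes differed. Donors and acceptors differed in 564 genes (4.28%) at 0 min, 1260 (9.57%) at 15 min, 1416 (10.8%) at 30 min, 882 (6.7%) at 60 min and 182 (1.38%) at 300 min, against 684 at 150 min. The 0 min groups have 3 libraries each, with none from experiment 4. The 60 min donors have 3, with none from experiment 2, and the 300 min acceptors 3, with none from experiment 3. The counts therefore do not rest on equal numbers or on the same experiments. A comparison of 150 with 0 min sets experiments 1 to 4 against 1 to 3. The difference at 150 min departed from that at 0 min in 2 genes (0.0152%), both lower, with 741 genes at an unadjusted p under 0.05. Fbxo32, a ubiquitin ligase gene of the FOXO programme, was 1.88 higher in donors at 0 min and at -0.37 at 150 min, a change of -2.25 (SE 0.38, edgeR adjusted p 0.00667). Fbxo32 was at 9.96, 6.45, 7.93 and 8.61 CPM in donor libraries 1 to 4 and at 9.58, 7.39, 10.2 and 16.7 CPM in acceptor libraries 1 to 4. The groups overlapped at 150 min, with acceptor 4 highest. Cxcr4, the receptor gene for the chemokine CXCL12, was 1.52 higher in donors at 0 min and at -0.30 at 150 min, a change of -1.82 (SE 0.33, edgeR adjusted p 0.0146). Cxcr4 was at 83.5, 95.02, 93.3 and 61.7 CPM in donor libraries 1 to 4 and at 84.4, 78.6, 130.2 and 115 CPM in acceptor libraries 1 to 4. Donor and acceptor libraries were mixed in order there too. Against 300 min, 1 gene was called (0.00759%), with 301 at an unadjusted p under 0.05. The focal adhesion gene Zyx had 0.79 at 150 min and -0.23 at 300 min, a difference of 1.02 (SE 0.19, edgeR adjusted p 0.0384). Zyx was at 169, 129, 104 and 79.2 CPM in donor libraries 1 to 4 and at 82.6, 73.4, 67.1 and 51.4 CPM in acceptor libraries 1 to 4. Each donor exceeded its own acceptor, and donor 4 lay below acceptor 1. The exons of Zyx and Epha1 overlap on opposite strands. Without the block Cxcr4 alone of these 3 was called (edgeR adjusted p 0.0472), and without experiments 1, 2 or 3 no gene was called in either comparison. Without experiment 4, 3 genes were called against 0 min and 0 against 300 min. A p that misses the threshold does not show that the other genes kept their difference.

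**Figure D5:**
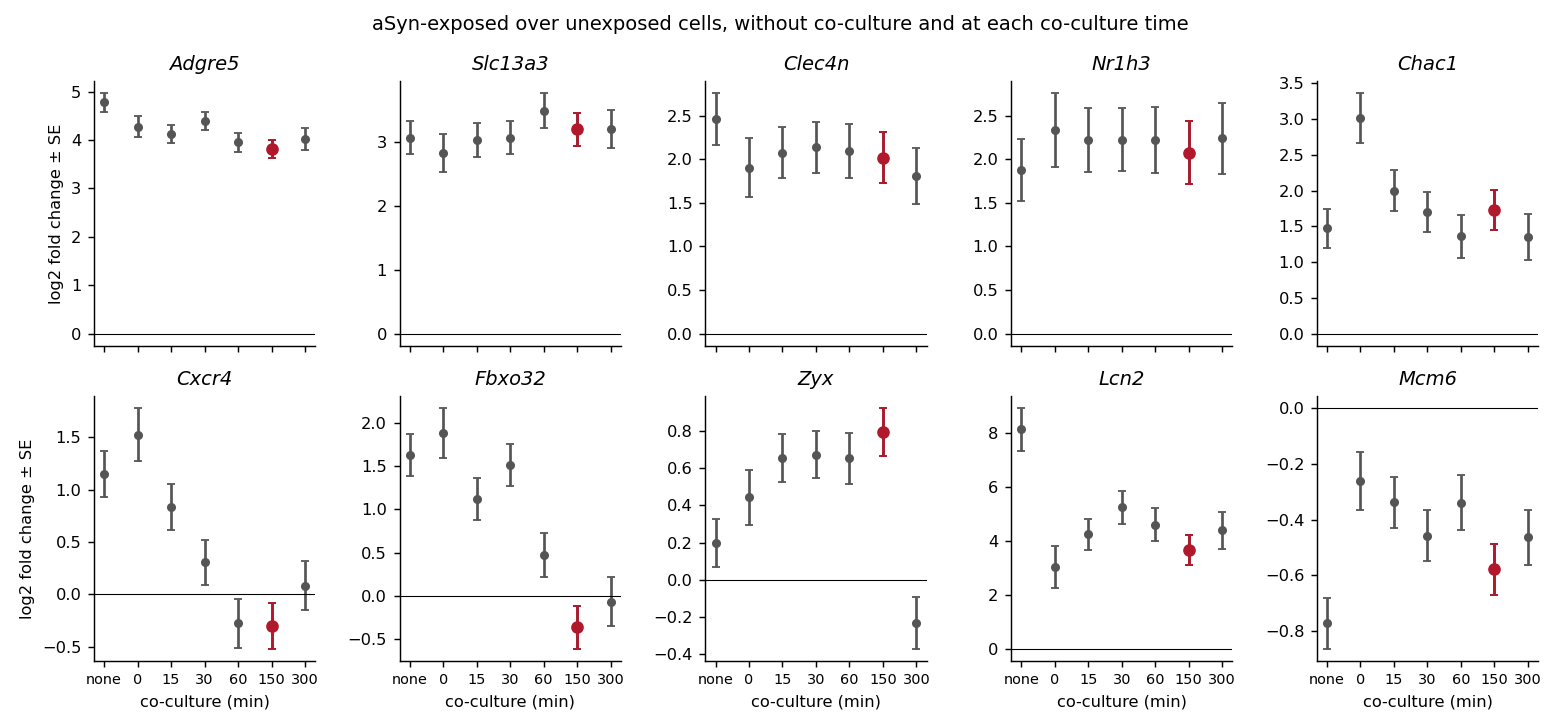
Log2 fold change (± SE, edgeR with the replicate block) of aSyn-exposed over unexposed cells without co-culture (none) and of donors over acceptors at 0 to 300 min, with 150 min in red and the time axis not to scale. Adgre5, Slc13a3, Clec4n and Nr1h3 stay high at every time, whereas Cxcr4 and Fbxo32 are near 0 at 150 min after 1.52 and 1.88 at 0 min.

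Of the 12 largest rises at 150 min, 9 were also called higher in donors by edgeR at each of the other 5 times. Il6 and Siglece were not called at 0 min (edgeR adjusted p 0.315 and 0.129), nor Cxcl3 at 300 min (0.0691). Experiment 4, which held most of the Il6 counts at 150 min, has no library at 0 min. Of the 12 largest falls, 4, 9, 8, 8 and 3 were called lower at 0, 15, 30, 60 and 300 min, and Zfp618 was the 1 called at each of these times. Spag5 and Ctla2a were called at none of them. Adgre5 had log2 differences of 4.27, 4.12, 4.39, 3.95 and 4.02 at 0, 15, 30, 60 and 300 min. Slc13a3 ranged from 2.83 at 0 min to 3.50 at 60 min, and Nr1h3 from 2.22 at 15 min to 2.34 at 0 min, against 2.07 at 150 min. Chac1 had 3.02 at 0 min and 1.73 at 150 min, and Mcm6 had -0.26 and -0.58. Neither change passed the test of the difference by edgeR (adjusted p 0.530 for Chac1 and 0.795 for Mcm6). Compared with the contrast without co-culture, the difference of Adgre5 was smaller at 150 min, -0.95 (SE 0.25, edgeR adjusted p 0.0479). This difference was not called without the block (edgeR adjusted p 1.00).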

How the data were processed

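Raw read counts per gene symbol for 54 libraries were used as the authors deposited them, per the file headers, and the authors' normalized table was not used. Libraries were 3′ mRNA libraries read with 50 bp single reads, per the labels' protocols. The submitters' processing notes name STAR, Partek, DESeq2 and the build mm10. Versions, annotation and use of strand are not given in the sources used here. All 54 columns were matched to samples by name.

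Counts were fitted in edgeR 4.0.16 (R 4.3.3, limma 3.58.1) with TMM scaling, filterByExpr at a minimum count of 10, 14 group means over 52 units and the replicate number as a block. The quasi-likelihood F test was adjusted by Benjamini-Hochberg over 13169 genes at 0.05. Untreated_Ctrl libraries with the same number were summed, which gave 4 units. SE values were derived from the log2 fold change and F. Donors and acceptors of 1 number were sorted from the same mixture, and their deviations from the group means correlated at 0.324 to 0.581, against at most 0.251 for other numbers. The labels name separate experiments, each with its own cells. P-values measure the residual spread over all 52 units of the 14 groups, after the group means and the block. They do not measure the spread of the compared donor and acceptor pairs alone. Apart from the block, units of the same experiment were treated as independent.

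Named genes were the 12 largest rises and falls among called genes with the same direction in 4 pairs and at least 5 CPM, the 5 largest in each direction of each difference of differences, up to 5 called members per list with the smallest p, and defining list members. Genes called without the block or in every alternative, and further called list members, were named after their values were seen. The members compared and all gene lists were chosen with earlier results of these data known. List counts under alternatives were added after seeing the data.

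The test was tested on simulated data for this comparison with 13036 genes: it recovered 37.9% of 1.5-fold, 44.8% of 2-fold and 84.8% of 4-fold changes, and 4.31% of its 116 calls were false. These counts were drawn from the fitted model, with the same fold in every experiment. The rates therefore do not cover differences that vary between experiments, and the false share was not measured for the real calls. Alternatives were no block, only the groups compared, DESeq2 1.42.0, RLE scaling, no filter, a minimum count of 50, Rn45s left out, Untreated_Ctrl libraries kept apart, and each replicate number left out. Promoter windows and gene names came from RefSeq (GRCm38.p6) and exon overlaps from GENCODE M21 (GRCm38).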

Additional observations from a re-analysis of the deposited data

Results flagged for a closer look

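Among 286 groups of 4 libraries (143 genes, donors and acceptors), 22 had 1 library far from the other 3 (7.69%), and 14 of the 22 were libraries of experiment 4. Chance flags about 1 in 20 independent groups. The genes looked at were those named in the text, and they share the same 8 libraries, so the shares cannot be compared. On the high side in experiment 4 stood Il6 (donor 40.4 CPM, acceptor 4.11 CPM), Nfkbia (donor 844 CPM, acceptor 1406 CPM), Spic (donor 19.8 CPM), Mmp8 (donor 60.2 CPM), Gas7 (donor 538 CPM), Hmox1 (acceptor 1581 CPM) and Fosl1 (acceptor 0.632 CPM). On the low side in experiment 4 stood the microglial adaptor gene Tyrobp (donor 619 CPM, acceptor 1420.4 CPM), Ctsd (donor 2409.7 CPM), P2ry12 (acceptor 2.13 CPM) and P2ry13 (acceptor 0 CPM). Donor 1 was high for the cell cycle genes Ccna2 (21.0 CPM), Ckap2l (10.8 CPM), Hmmr (8.20 CPM) and Mcm7 (30.3 CPM). Single low libraries elsewhere were donor 3 for Maf (280.2 CPM) and Tnfrsf11a (90.9 CPM), donor 2 for H2-DMa (4.61 CPM) and acceptor 2 for Ddah2 (10.98 CPM).

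The donor minus acceptor difference at 150 min departed from that at 0 min for Fbxo32 (-2.25 on the log2 scale) and Cxcr4 (-1.82) and from that at 300 min for Zyx (1.02), each by edgeR's test of the difference. Against the difference without co-culture it was larger for Nr2f1 (2.73), Slc25a25 (1.99), Sesn1 (1.78), Dok2 (1.71) and AU022793 (1.62). It was smaller for Lcn2 (-4.50), Nr4a2 (-3.67), Cxcl1 (-3.09), Socs3 (-2.93) and AI504432 (-2.59).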

How the results depend on the processing

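Without the replicate block, 22 genes were called between donors and acceptors at 150 min in place of 684, and 1, 0 and 2 genes in place of 2, 1 and 126 for the differences from 0 min, 300 min and no co-culture. With only the groups compared and the block, the counts were 15, 0, 0 and 9. DESeq2 gave 928, 5, 1 and 212. Leaving out 1 replicate number gave 250 to 426, 0 to 3, 0 to 0 and 20 to 66. RLE scaling, either other filter, leaving out Rn45s and keeping the Untreated_Ctrl libraries apart left each count within 1.5 times. None of the 684 genes changed sign in any alternative that tested it. Of the 122 called genes with values in the text, 100 were not called without the block, 109 with the 8 libraries alone, 3 with DESeq2, 5 without the filter, and 46, 56, 47 and 36 without replicates 1 to 4. The 3 not called with DESeq2 were Lcn2, Il6 and Il1a. Simulated 1.5-fold changes were recovered in 37.9% of genes, so small differences may go uncalled at 4 pairs. Genes under about 0.184 to 0.293 CPM (3 counts) were not measurable.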
